A study of Mus musculus with 14 samples.

Results

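Primary cortical neurons that received peptides of the neuronal membrane proteasome (NMP peptides) together with APV were compared with neurons that received the peptides alone. The comparison takes the libraries whose labels give these treatments, 3 with NMP peptides plus APV and 3 with NMP peptides, which are 6 of the 14 libraries in the series. All cultures came from wild-type C57BL/6 mice, were kept for 12 days in vitro and were treated for 1 h before ribosome-depleted total RNA was sequenced. The first group received purified NMP peptides at 4% by volume with 100 µM APV, and its reference received the same peptides at 4% by volume without APV. Further libraries, which entered the same fit and are given as levels or in comparisons with DMSO, received NMP peptides cleaved with proteinase K at 4% by volume (3 libraries), 20 µM bicuculline, a blocker of GABA-A receptors that raises network activity (3 libraries), or 1% DMSO (2 libraries). A DMSO content is given for the DMSO group only. Libraries with APV and without peptides are not analysed here, so what APV does by itself and what it does to the peptide response cannot be told apart.

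The neuronal membrane proteasome is a proteasome held at the plasma membrane of neurons, which releases peptides into the medium. NMDA receptors are glutamate-gated channels that let calcium into the neuron when glutamate is bound and the membrane is depolarised, and APV competes with glutamate at these receptors. Calcium entry is known to reach the nucleus through calmodulin-dependent kinases and MAP kinases, which act on CREB and on serum response factor with its ETS-domain partners, and within an hour this switches on immediate-early transcription factors and then effector genes of synapses and of neuronal survival.

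The values are log2 signals that the authors quantile normalised, so each difference is on the log2 scale and read depth is unknown. Each library held values for 15824 to 16231 features, and 10877 genes passed the filter on low values. The neuronal label held, with Map2 at 6.60, 6.33 and 6.70 with APV and 6.02, 6.41 and 6.33 with the peptides, and Grin1, the obligatory NMDA receptor subunit, at 5.95, 5.86 and 5.93 with APV and 5.93, 6.01 and 5.69 with the peptides. Astrocyte, inhibitory neuron and oligodendrocyte lineage genes were measured too, so the cultures were mixed. In bulk RNA fewer cells of a type and less RNA per cell cannot be told apart.

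With APV, 96 genes fell (0.883% of those tested) and 60 rose (0.552%) at a limma adjusted p under 0.05. The falls were the larger changes. Of the genes called, 28 fell and 4 rose by at least 1 on the log2 scale, and the median size was 0.67 for the falls and 0.48 for the rises. The fallen genes were led by Npas4, an activity-dependent transcription factor of neurons, Nppc, which encodes C-type natriuretic peptide, and Bdnf, a neurotrophin. The risen genes were led by the orphan receptor gene Gpr139, Slc44a5, a gene of the choline transporter-like family, and Elk1, an ETS-domain partner of serum response factor. All 156 called genes had APV libraries that did not overlap the peptide libraries, which was so for 21.8% of all tested genes (12.2% lower and 9.62% higher with APV). With 3 libraries a side an exact permutation test cannot go below a two-sided p of 0.1 for a single gene. The series design calls the replicates biological and does not say which step was repeated, so each p-value covers only the variation among these libraries, which may be technical.

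**Figure D1:**
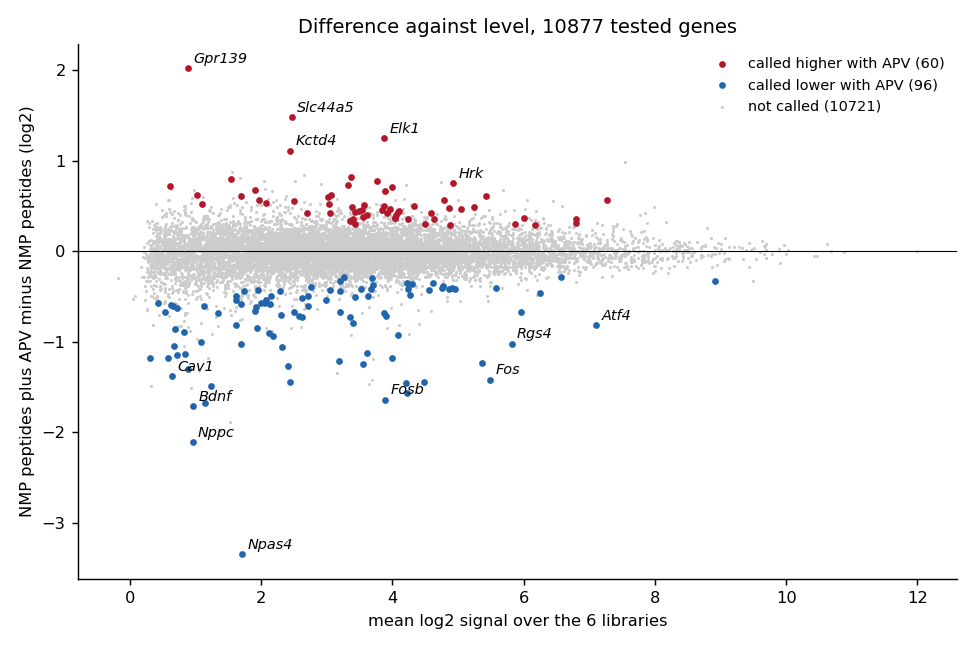
Difference between the groups (NMP peptides plus APV minus NMP peptides, log2, vertical axis) against the mean log2 signal over the 6 libraries (horizontal axis), 1 point for each of 10877 tested genes. The 96 called falls reach -3.35 for Npas4, and the 60 called rises reach 2.02 for Gpr139.

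Npas4 (chromosome 19, 4984353 to 5003439, GRCm38.p6) changed most. Its log2 signal was -0.07, 0.11 and 0.08 with APV, against 3.45, 3.80 and 2.93 with the peptides. The groups were far apart, and the APV libraries lay close together while NMP peptides replicate 3 was the lowest of its group. The difference was -3.35 (SE 0.27, limma adjusted p = 3.75e-05), a level 10.2-fold lower with APV, and Npas4 was still called in each of the 6 fits that left out 1 library. The APV level was also under the levels of the other groups, with means of 0.93 ± 0.24 (SD, n = 3) with PK-cleaved peptides, 5.64 ± 0.49 (SD, n = 3) with bicuculline and 1.31 ± 0.70 (SD, n = 2) with DMSO. It was not called lower against DMSO (difference -1.27, limma adjusted p = 0.0916) or PK-cleaved peptides (-0.89, 0.141).

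Upstream sequences of genes at both ends of the list are shown because the activity response is known to act through cAMP response elements (CREs), which CREB binds and whose full form reads TGACGTCA. They are RefSeq sequences on GRCm38.p6, 250 bases before a listed start of the gene, 5′ to 3′ on the strand of the gene. For Npas4, Nr4a1 and Bdnf the start used lies inside the listed span of the gene. Capitals mark the CRE or its core TGACG on either strand, the box CCAAT and the EGR motif GCGGGGGCG. Npas4, Fos, Nr4a1, Btg2, Bdnf and Nppc, the second largest fall, fell with APV, and Elk1 and Slc44a5 rose. All of these falls had higher mean levels with bicuculline than with DMSO. Bdnf (difference 1.42, limma adjusted p = 0.307) and Nppc (0.87, 0.244) were not called for bicuculline, and the others were.
Npas4, chr19:4989972-4990221, minus strand: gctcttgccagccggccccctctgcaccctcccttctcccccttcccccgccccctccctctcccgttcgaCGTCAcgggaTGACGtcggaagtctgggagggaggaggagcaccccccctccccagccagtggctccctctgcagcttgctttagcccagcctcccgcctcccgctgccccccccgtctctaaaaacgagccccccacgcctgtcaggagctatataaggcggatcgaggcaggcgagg
Fos, chr12:85473640-85473889, plus strand: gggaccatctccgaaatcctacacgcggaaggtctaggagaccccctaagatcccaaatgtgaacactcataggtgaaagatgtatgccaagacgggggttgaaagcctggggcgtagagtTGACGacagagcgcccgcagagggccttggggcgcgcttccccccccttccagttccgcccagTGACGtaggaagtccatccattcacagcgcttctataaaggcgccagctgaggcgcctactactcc
Nr4a1, chr15:101266596-101266845, plus strand: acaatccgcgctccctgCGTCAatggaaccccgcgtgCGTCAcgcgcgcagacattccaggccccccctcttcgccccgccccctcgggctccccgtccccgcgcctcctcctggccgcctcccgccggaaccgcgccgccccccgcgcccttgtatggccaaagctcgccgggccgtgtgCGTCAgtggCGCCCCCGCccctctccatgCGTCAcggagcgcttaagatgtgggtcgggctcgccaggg
Btg2, chr1:134079156-134079405, minus strand: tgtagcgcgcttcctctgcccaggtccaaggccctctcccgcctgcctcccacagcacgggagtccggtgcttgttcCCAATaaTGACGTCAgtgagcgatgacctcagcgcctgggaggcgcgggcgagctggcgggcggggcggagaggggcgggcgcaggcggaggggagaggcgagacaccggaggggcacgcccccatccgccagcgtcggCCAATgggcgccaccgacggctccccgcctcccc
Bdnf, chr2:109692186-109692435, plus strand: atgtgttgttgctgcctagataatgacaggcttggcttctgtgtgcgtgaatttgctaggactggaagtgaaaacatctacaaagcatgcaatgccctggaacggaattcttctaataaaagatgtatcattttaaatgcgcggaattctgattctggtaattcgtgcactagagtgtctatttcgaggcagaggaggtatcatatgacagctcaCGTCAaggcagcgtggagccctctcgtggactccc
Nppc, chr1:86670574-86670823, minus strand: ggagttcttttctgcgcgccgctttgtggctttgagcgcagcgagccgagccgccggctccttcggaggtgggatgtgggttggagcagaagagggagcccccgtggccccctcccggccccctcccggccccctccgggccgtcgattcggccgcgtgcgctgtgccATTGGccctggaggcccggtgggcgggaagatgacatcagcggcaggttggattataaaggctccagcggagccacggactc
Elk1, chrX:20950609-20950858, minus strand: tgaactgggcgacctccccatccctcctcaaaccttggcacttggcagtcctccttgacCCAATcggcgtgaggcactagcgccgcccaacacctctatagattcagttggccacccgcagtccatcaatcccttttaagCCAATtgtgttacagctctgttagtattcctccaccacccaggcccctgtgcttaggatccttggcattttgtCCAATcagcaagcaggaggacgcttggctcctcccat
Slc44a5, chr3:153973186-153973435, plus strand: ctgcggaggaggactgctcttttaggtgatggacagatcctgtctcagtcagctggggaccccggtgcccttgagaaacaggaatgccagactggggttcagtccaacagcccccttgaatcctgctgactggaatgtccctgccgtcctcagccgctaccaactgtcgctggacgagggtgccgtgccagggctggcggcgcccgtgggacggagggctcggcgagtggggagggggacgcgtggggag
Npas4 and Fos hold the CRE core at 2 places each and Nr4a1 at 4. Btg2 holds the full CRE. Bdnf has 7 listed starts, and the one shown is the one of these whose window holds the core. The window of Nppc and that of Elk1 hold CCAAT, at 1 and 3 places, and no CRE core, and the letters searched are not in the window of Slc44a5.

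**Figure D2:**
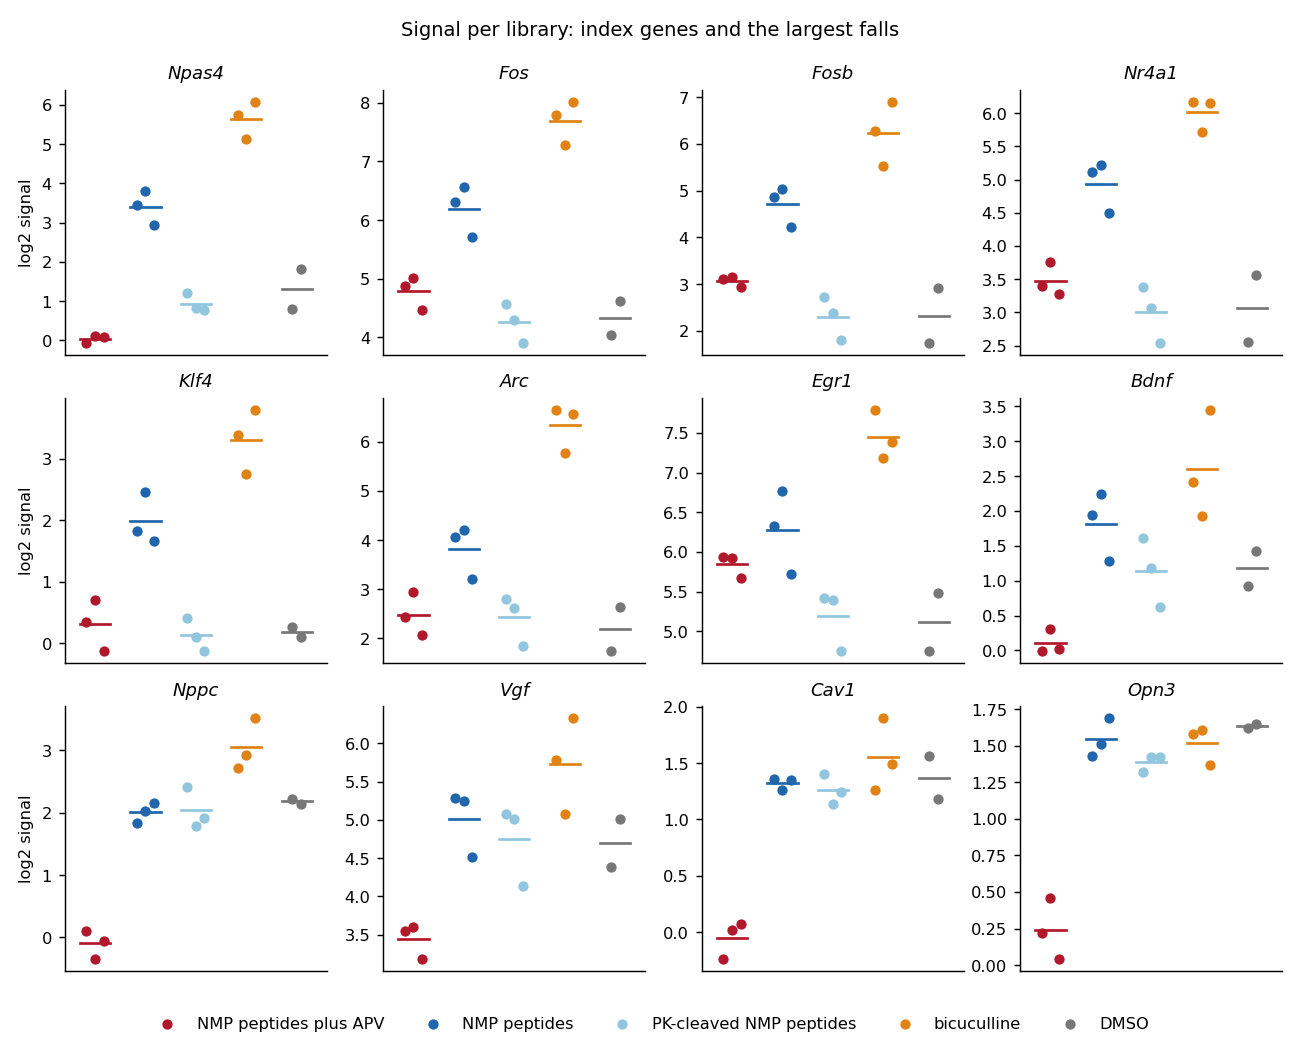
Log2 signal in each library (vertical axis, own scale in each panel) for 12 genes, with points for libraries and bars for group means in the 5 treatment groups. In Npas4 the 3 APV libraries lie between -0.07 and 0.11, and the NMP peptides libraries between 2.93 and 3.80.

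Immediate-early transcription factors differed widely in the size of their change. Of 23 tested members 10 fell and 0 rose, 22 lay below 0, and the median difference was -0.85, against -0.01 over all tested genes, of which 53.5% lay below 0. The share called over all tested genes, for this and the later lists, was 0.883% lower and 0.552% higher. These lists were chosen with earlier results of these data known, so their counts are a description. Fos, an AP-1 subunit (chromosome 12, 85473890 to 85477274), was at 4.88, 5.01 and 4.46 with APV, against 6.31, 6.56 and 5.71 with the peptides. No APV library reached the lowest peptide library, and replicate 3 was the lowest in both groups. The difference was -1.42 (SE 0.25, limma adjusted p = 0.0114). The related Fosb was at 3.12, 3.16 and 2.93 with APV, against 4.86, 5.03 and 4.23 with the peptides (difference -1.64, SE 0.35, limma adjusted p = 0.0303). Nr4a1, an orphan nuclear receptor, was at 3.40, 3.76 and 3.28 with APV, against 5.11, 5.22 and 4.49 with the peptides (difference -1.46, SE 0.27, limma adjusted p = 0.0142). In both genes every APV library lay below every peptide library. Klf4, a Krüppel-like factor, fell by 1.68 (SE 0.27), Maff, a small MAF factor that pairs with other leucine zipper proteins, by 1.49 (SE 0.27), Jund by 0.67 (SE 0.13) and Klf6 by 0.39 (SE 0.07). Junb (-1.23, SE 0.28) and Nr4a3 (-0.93, SE 0.20) were the other called members.

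Other well-known activity genes were not called. Arc, which encodes a synaptic protein that forms capsid-like particles and belongs to the effector list, was at 2.43, 2.94 and 2.07 with APV, against 4.07, 4.21 and 3.20 with the peptides. The groups did not overlap, yet the difference of -1.35 had an SE of 0.34 and a limma adjusted p of 0.0708. Egr1, a zinc finger factor, was at 5.94, 5.92 and 5.67 with APV, against 6.33, 6.77 and 5.72 with the peptides, so the groups overlapped (difference -0.43, SE 0.26, limma adjusted p = 0.435). Its APV mean of 5.84 ± 0.15 (SD, n = 3) stood above the means of 5.19 ± 0.38 (SD, n = 3) with PK-cleaved peptides and 5.11 ± 0.52 (SD, n = 2) with DMSO, while for Npas4 the APV mean stood below both. None of these differences was called with limma. Egr4 (-1.42, SE 0.33, limma adjusted p = 0.0534), Nr4a2 (-1.03, SE 0.25, limma adjusted p = 0.0548) and Atf3 (-1.89, SE 0.48, limma adjusted p = 0.0701) were just outside the threshold. Klf10 (0.38, SE 0.11) was the member above 0.

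How many of these factors were called depended on single libraries and on the settings of the fit. With only the APV and peptide libraries in the fit 15 were called, and 16 with array weights, which weigh libraries by their spread. The count was 6 when the 60% of features with the lowest mean were dropped, and 8 without a variance trend. Leaving out APV replicates 1, 2 and 3 in turn gave 6, 7 and 2 calls among the 23. Leaving out NMP peptides replicates 1, 2 and 3 gave 4, 3 and 10. Fos was not called without APV replicate 3 (difference -1.25, limma adjusted p = 0.065), NMP peptides replicate 1 (-1.36, 0.0521) or NMP peptides replicate 2 (-1.23, 0.0554). Nr4a1 lost its call without APV replicate 1 (limma adjusted p = 0.0658) or 3 (0.074) and without NMP peptides replicate 1 (0.068) or 2 (0.0602). Fosb was called with all libraries and without NMP peptides replicate 3, and without each of the other 5 its limma adjusted p was between 0.0776 and 0.126. Arc was called without NMP peptides replicate 3 (difference -1.66, limma adjusted p = 0.037). It was also called with only the APV and peptide libraries in the fit (limma adjusted p = 0.0403) and with array weights (0.0364). Over the 96 falls, NMP peptides replicate 3 was the lowest peptide library for 55 genes, replicate 1 for 24 and replicate 2 for 17.

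Activity-regulated effector genes also lay mostly below 0. Of 40 tested members 12 fell and 0 rose, 37 lay below 0, and the median was -0.49. Bdnf (chromosome 2, 109674700 to 109727043) was at -0.01, 0.31 and 0.02 with APV, against 1.94, 2.24 and 1.28 with the peptides (difference -1.71, SE 0.34, limma adjusted p = 0.0219). Its APV libraries were also under every PK-cleaved library, of which the lowest was 0.62. Nfil3, a transcriptional repressor of the leucine zipper class, was at 2.61, 2.66 and 2.46 with APV, against 3.81, 3.73 and 3.82 with the peptides, with little spread in either group (difference -1.21, SE 0.11, limma adjusted p = 8.33e-05). Rgs2 (-1.18, SE 0.18) and Rgs4 (-1.02, SE 0.19) fell, both of which encode proteins that speed the return of G proteins to the inactive state. Btg2, an antiproliferative gene of immediate-early kind, fell by 1.25 (SE 0.19), Gadd45b by 1.44 (SE 0.27) and Gadd45g by 1.44 (SE 0.33), which encode stress and DNA damage response proteins. Trib1, a pseudokinase gene, fell by 0.94 (SE 0.15) and Sik1, a salt-inducible kinase that restrains CREB coactivators, by 0.44 (SE 0.08). Homer1, whose short form is activity-induced, had a difference of -0.03 (SE 0.11) for the gene as a whole.

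Nfil3, Rgs2 and Btg2 were called with each library left out in turn. Gadd45b, Gadd45g and Rgs4 lost the call without APV replicate 1 or 3 and without NMP peptides replicate 1 or 2. Their limma adjusted p in these fits was between 0.0524 and 0.2. Bdnf was called with all libraries and without NMP peptides replicate 3 only, with limma adjusted p between 0.0545 and 0.0989 without each of the other 5. Leaving out APV replicates 1, 2 and 3 in turn gave 7, 10 and 5 called effectors, and leaving out NMP peptides replicates 1, 2 and 3 gave 6, 5 and 13. With only the APV and peptide libraries in the fit 19 effectors were called, and 20 with array weights. When the 60% of features with the lowest mean were dropped the count was 8.

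Of 16 tested genes that switch off MAP kinases, 2 phosphatase genes fell and 0 rose. Dusp1 was at 3.22, 3.09 and 2.86 with APV, against 4.34, 4.39 and 3.80 with the peptides (difference -1.12, SE 0.17, limma adjusted p = 0.00513), and Dusp4 had a difference of -0.79 (SE 0.15, limma adjusted p = 0.0183). The median of the list was -0.26, with 14 of 16 below 0. Dusp1 was called with each library left out in turn, and the list count was 1 to 4 over these fits, with 4 without NMP peptides replicate 3. Dusp4 lost its call without APV replicate 2 or 3 and without NMP peptides replicate 1 or 2 (limma adjusted p between 0.0569 and 0.0979).

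Genes linked to NMDA receptor-dependent survival of neurons largely repeat the names above, so this list is not separate from them. Of 12 tested members 7 fell and 0 rose, with a median of -1.34, in a list chosen with earlier results of these data known. The member not yet named is Adcyap1, which encodes the neuropeptide PACAP. It was at 0.08, 0.44 and 0.31 with APV, against 1.64, 1.59 and 1.02 with the peptides (difference -1.14, SE 0.23, limma adjusted p = 0.0218). Prdx3 (0.01, SE 0.08) and Srxn1 (0.27, SE 0.15), antioxidant genes of the same list, were not called. The count was 2 without APV replicate 1, APV replicate 3, NMP peptides replicate 1 or NMP peptides replicate 2. Adcyap1 lost its call in these same fits (limma adjusted p between 0.0813 and 0.111).

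Secreted peptides gave the second largest fall. Nppc (chromosome 1, 86666293 to 86670573) was at 0.11, -0.35 and -0.05 with APV, against 1.84, 2.03 and 2.16 with the peptides (difference -2.11, SE 0.20, limma adjusted p = 9.22e-05), a level 4.31-fold lower. Its peptide level was close to the means of 2.04 ± 0.34 (SD, n = 3) with PK-cleaved peptides and 2.18 ± 0.06 (SD, n = 2) with DMSO, while the bicuculline mean was higher, at 3.05 ± 0.42 (SD, n = 3). The APV libraries were below those of every other group. Vgf, a granin-like precursor of several neuropeptides, was at 3.55, 3.60 and 3.18 with APV, against 5.29, 5.24 and 4.51 with the peptides (difference -1.57, SE 0.32, limma adjusted p = 0.0219), with means of 4.74 ± 0.52 (SD, n = 3) with PK-cleaved peptides and 4.70 ± 0.45 (SD, n = 2) with DMSO. Of 29 tested genes of secreted neuropeptides and growth factors, 4 fell (Nppc, Bdnf, Vgf and Adcyap1) and 0 rose, and the median was -0.07. Nppc was called with each library left out in turn, and Vgf was called with all libraries and without NMP peptides replicate 3, with limma adjusted p between 0.0586 and 0.112 without each of the other 5. The list count was 1 without APV replicate 1, APV replicate 3, NMP peptides replicate 1 or NMP peptides replicate 2, and 2 without APV replicate 2.

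In other large falls, too, the APV libraries lay under those of every other group. Opn3, an opsin gene expressed in brain, was at 0.22, 0.46 and 0.04 with APV, against 1.43, 1.51 and 1.69 with the peptides (difference -1.30, SE 0.12, limma adjusted p = 8.33e-05), and its means were 1.39 ± 0.06 (SD, n = 3) with PK-cleaved peptides, 1.52 ± 0.13 (SD, n = 3) with bicuculline and 1.63 ± 0.03 (SD, n = 2) with DMSO. Cav1, which encodes caveolin 1 of membrane caveolae, was at -0.24, 0.02 and 0.07 with APV, against 1.36, 1.26 and 1.35 with the peptides (difference -1.38, SE 0.16, limma adjusted p = 0.000759), and its means were 1.26 ± 0.13 (SD, n = 3) with PK-cleaved peptides, 1.55 ± 0.32 (SD, n = 3) with bicuculline and 1.37 ± 0.27 (SD, n = 2) with DMSO. In both genes the peptide level lay near the levels of the DMSO and PK-cleaved cultures. Rem2, a small GTPase of the RGK family that regulates calcium channels, fell by 1.27 (SE 0.18, limma adjusted p = 0.00354). All of these comparisons share libraries, so the levels are given side by side. Opn3, Cav1 and Rem2 were called with each library left out in turn.

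For Fos, Btg2 and Klf4 the APV level lay nearer to that of the control cultures. Fos had means of 4.78 ± 0.29 with APV and 6.20 ± 0.44 with the peptides (SD, n = 3 each), and of 4.26 ± 0.34 (SD, n = 3) with PK-cleaved peptides and 4.32 ± 0.41 (SD, n = 2) with DMSO, and the bicuculline mean was 7.70 ± 0.38 (SD, n = 3). The peptide libraries thus lay between those of bicuculline and those of the other groups. Btg2 had means of 2.92 ± 0.27 with APV and 4.17 ± 0.34 with the peptides (SD, n = 3 each), 2.95 ± 0.19 (SD, n = 3) with PK-cleaved peptides, 6.06 ± 0.34 (SD, n = 3) with bicuculline and 2.88 ± 0.17 (SD, n = 2) with DMSO. Klf4 had means of 0.30 ± 0.42 with APV and 1.99 ± 0.42 with the peptides (SD, n = 3 each), 0.13 ± 0.27 (SD, n = 3) with PK-cleaved peptides, 3.32 ± 0.52 (SD, n = 3) with bicuculline and 0.19 ± 0.12 (SD, n = 2) with DMSO. Not every immediate-early factor had this order. Jund averaged 5.63 with APV, 6.30 with the peptides, 6.10 with PK-cleaved peptides and 6.01 with DMSO, and Klf6 averaged 4.57 with APV, 4.96 with the peptides, 4.73 with PK-cleaved peptides and 4.80 with DMSO, so their APV means were the lowest of these groups. Npas4, Bdnf and Rgs2 likewise had peptide means above and APV means below those of DMSO and PK-cleaved cultures. The APV means of these genes and of Jund and Klf6 were not called against DMSO (limma adjusted p between 0.0916 and 0.34). Peptides against DMSO was called for Npas4 (difference 2.08, limma adjusted p = 0.0455). For Bdnf, Rgs2, Jund and Klf6 it was not (limma adjusted p = 0.971 each). The values for Rgs2 were 3.40 ± 0.11 with APV and 4.58 ± 0.18 with the peptides (SD, n = 3 each), 4.13 ± 0.21 (SD, n = 3) with PK-cleaved peptides and 4.12 ± 0.19 (SD, n = 2) with DMSO.

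Potassium channel genes contributed 4 falls of 41 tested members, and 0 rose, beside 0.883% of all tested genes that fell and 0.552% that rose. Kcng1, a silent modifier subunit, was at 2.23, 2.19 and 2.08 with APV, against 2.69, 3.00 and 2.81 with the peptides (difference -0.67, SE 0.09, limma adjusted p = 0.00216). Kcnv1 (-0.68, SE 0.10) and Kcnf1 (-0.68, SE 0.15) are also modifier subunits that form no channel alone, and Kcnn2 (-0.57, SE 0.13) is a calcium-activated channel. The median of the list was -0.11, with 27 of 41 below 0 (65.9%, against 53.5% of all tested genes). Kcng1 and Kcnv1 were called with each library left out in turn. Kcnf1 lost its call in 5 of the 6 such fits (limma adjusted p between 0.0794 and 0.117, all except without NMP peptides replicate 3) and Kcnn2 in 5 (between 0.0735 and 0.189, all except without APV replicate 2).

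Genes of the integrated stress response, which is set off by phosphorylation of the translation factor eIF2α and carried by ATF4, lay on the low side with APV. Of 31 tested members 2 fell and 0 rose, but 30 lay below 0 and the median was -0.41. Atf4 was at 6.73, 7.04 and 6.30 with APV, against 7.43, 7.52 and 7.59 with the peptides (difference -0.82, SE 0.16, limma adjusted p = 0.0187). The peptide libraries were close together and the APV libraries were spread, with replicate 3 lowest and replicate 2 highest. Cebpb, a leucine zipper factor, was at 1.75, 1.77 and 1.48 with APV, against 2.76, 2.51 and 2.42 with the peptides (difference -0.90, SE 0.20, limma adjusted p = 0.0435). Chac1, which degrades glutathione, had the spread of Atf4 in a larger form, with 3.06, 3.54 and 2.11 with APV, against 4.25, 4.36 and 4.51 with the peptides (difference -1.47, SE 0.34, limma adjusted p = 0.0504). The calls depended on single libraries. Without APV replicate 1, APV replicate 3, NMP peptides replicate 1, 2 or 3 in turn, 0 members were called, and without APV replicate 2 there were 3. Atf4 then had limma adjusted p between 0.0529 and 0.0764, and Cebpb between 0.0762 and 0.185 over all 6 fits. The unfolded protein response of the endoplasmic reticulum had 0 of 20 genes called with limma and a median of -0.08, with Herpud1 (-0.65, SE 0.22) and Xbp1 (-0.28, SE 0.09) at unadjusted p of 0.0113 and 0.00653. Heat shock chaperones had 0 of 12 called and a median of -0.05.

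Few genes of the receptor and of its signal path to the nucleus were called. Of 13 tested subunits of ionotropic glutamate receptors 0 were called with limma, the median was 0.06 and 11 lay above 0. Grin2b, an NMDA receptor subunit, was at 5.01, 5.65 and 4.68 with APV, against 4.41, 4.82 and 3.83 with the peptides, so the groups overlapped (difference 0.76, SE 0.30, limma adjusted p = 0.246). Gria1, an AMPA receptor subunit, had a difference of 0.34 (SE 0.12, limma adjusted p = 0.184). Of 42 tested genes of calcium and cAMP signalling to the nucleus 1 fell, Sik1, and the median was 0.11. Camk2a (0.55, SE 0.17), Mef2c (0.50, SE 0.14) and Crtc1 (0.29, SE 0.08) lay above 0 and were not called. Sik1 lost its call without APV replicate 3 (limma adjusted p = 0.0774) or NMP peptides replicate 2 (0.062).

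**Figure D3:**
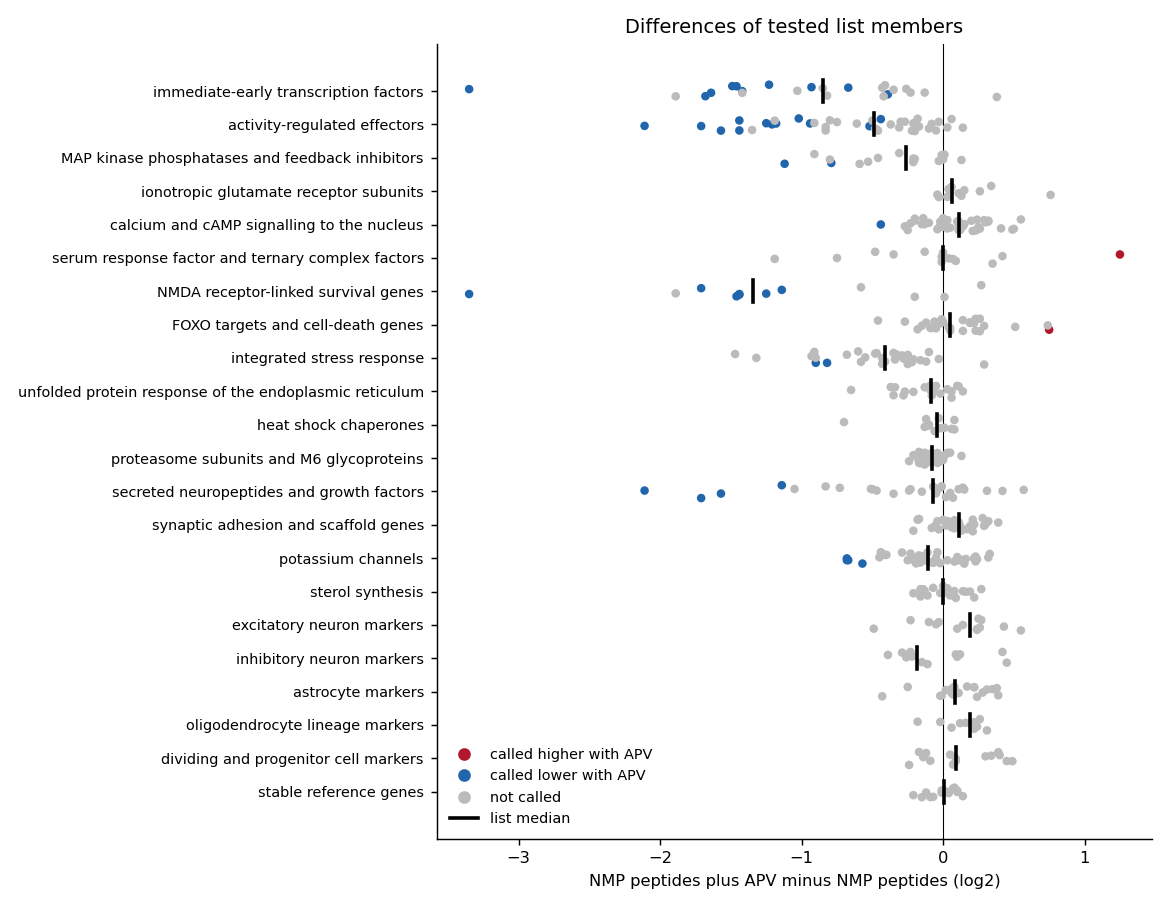
Difference between NMP peptides plus APV and NMP peptides (log2, horizontal axis) for each tested member of 22 of the 24 gene lists (rows), coloured by call, with the list median as a black bar. The immediate-early list has a median of -0.85, and the reference genes a median of 0.01 with no member called.

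Among genes that rose, Elk1 had the smallest p. Elk1 (chromosome X, 20933395 to 20950608) was at 4.48, 4.42 and 4.59 with APV, against 3.23, 3.28 and 3.23 with the peptides, with tight values in both groups (difference 1.25, SE 0.10, limma adjusted p = 3.32e-05). Its means in the other groups were 3.33 ± 0.20 (SD, n = 3) with PK-cleaved peptides, 3.30 ± 0.13 (SD, n = 3) with bicuculline and 3.42 ± 0.04 (SD, n = 2) with DMSO, so the APV libraries alone were high. Of the 15 tested genes of serum response factor, its partners and targets, Elk1 was the one called, and the partners Elk3 (0.09, SE 0.16), Elk4 (0.35, SE 0.24), Mkl1 (-0.01, SE 0.08) and Mkl2 (0.42, SE 0.15) were not. Cyr61 (-1.19, SE 0.31) and Ctgf (-0.75, SE 0.18), matricellular targets of the same pathway, lay below 0 and were not called.

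Gpr139 (chromosome 7, 119140747 to 119184538) was at 2.08, 1.85 and 1.74 with APV, against -0.99, 0.58 and 0.02 with the peptides (difference 2.02, SE 0.34, limma adjusted p = 0.00884). The peptide libraries were low and spread over more than a log2 unit, and the means were 0.20 ± 0.49 (SD, n = 3) with PK-cleaved peptides and 0.50 ± 0.23 (SD, n = 2) with DMSO. Slc44a5 (chromosome 3, 153973436 to 154271747) was at 3.30, 3.08 and 3.24 with APV, against 1.81, 1.62 and 1.75 with the peptides (difference 1.48, SE 0.13, limma adjusted p = 5.3e-05). Hrk, which encodes a BH3-only protein that promotes neuronal death, was at 5.32, 5.43 and 5.16 with APV, against 4.49, 4.55 and 4.61 with the peptides (difference 0.75, SE 0.12, limma adjusted p = 0.00685). It was the 1 member called of 28 tested FOXO targets and cell-death genes, whose median was 0.05. Txnip, a redox regulator that responds to glucose, had a difference of 0.74 with an SE of 0.30 and was not called.

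The other large rises were of genes with varied roles. Syt13, an atypical synaptotagmin, rose by 0.71 (SE 0.12) and Otof, the calcium sensor otoferlin, by 0.72 (SE 0.14). Slc4a8, a sodium-driven bicarbonate exchanger of neurons, rose by 0.82 (SE 0.15) and Slc24a4, a potassium-dependent sodium-calcium exchanger, by 0.80 (SE 0.16). Prkab2, a regulatory subunit of the energy sensor AMPK, was at 4.21, 4.16 and 4.09 with APV, against 3.26, 3.33 and 3.54 with the peptides (difference 0.77, SE 0.10, limma adjusted p = 0.00186). Kctd4 (1.11, SE 0.21), Creg2 (0.73, SE 0.13), Lmln (0.68, SE 0.10), Plcxd2 (0.67, SE 0.10), Ptchd2 (0.62, SE 0.12) and Smg1 (0.62, SE 0.14), a kinase of nonsense-mediated decay, complete the 15 largest rises. In each of Slc44a5, Syt13, Prkab2 and Hrk the peptide mean was within 0.20 of the DMSO mean, as the plot of risers by library shows. Elk1, Gpr139, Slc44a5, Hrk, Syt13, Prkab2, Lmln and Plcxd2 were called with each library left out in turn. Otof lost its call without each library except APV replicate 2 (limma adjusted p between 0.0613 and 0.105). Slc24a4 (between 0.0536 and 0.112) and Smg1 (between 0.0993 and 0.19) lost it without each library except NMP peptides replicate 2. Ptchd2 lost it without each library except NMP peptides replicate 3 (between 0.0532 and 0.0778). Kctd4, Slc4a8 and Creg2 lost it in fewer of these fits.

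**Figure D4:**
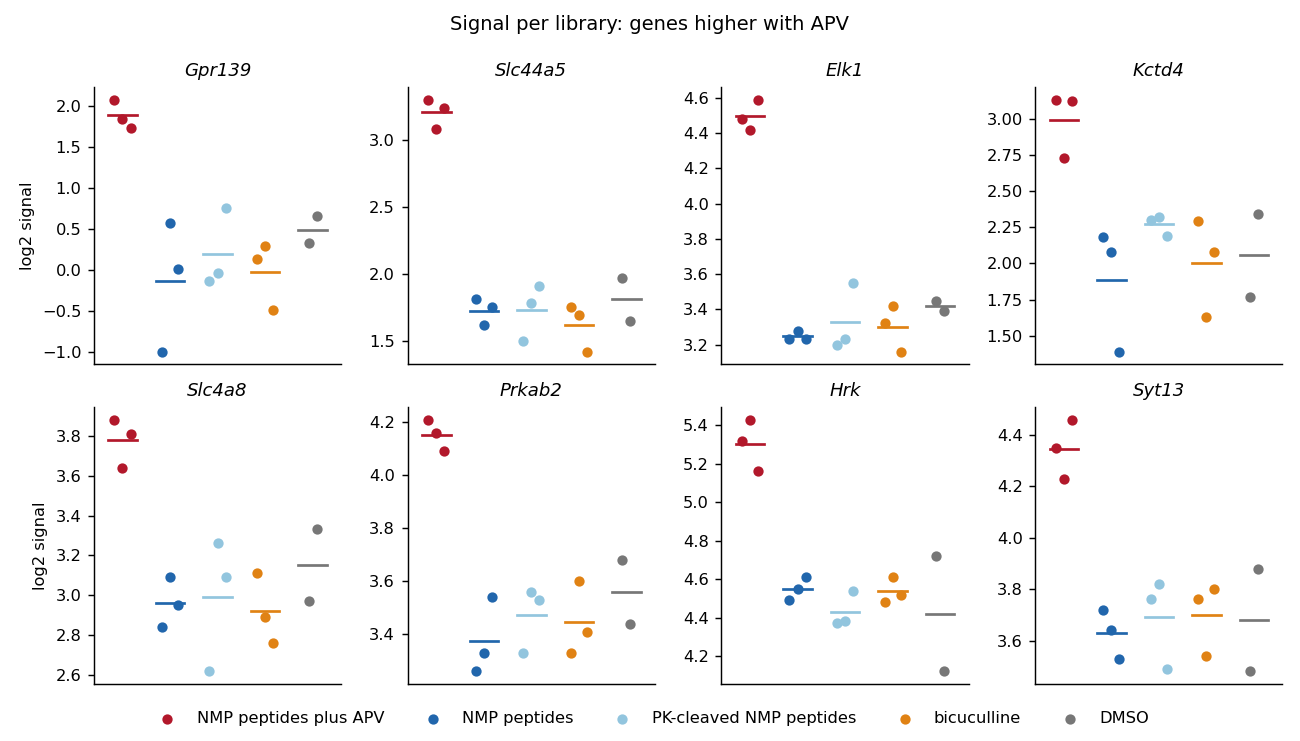
Log2 signal in each library (vertical axis, own scale in each panel) for 8 genes that rose with APV, with points for libraries and bars for group means. Elk1 lies between 4.42 and 4.59 in the 3 APV libraries and between 3.23 and 3.28 in the NMP peptides libraries.

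Bicuculline against DMSO shares no library with this comparison, so its genes could be followed here. Both comparisons come from the same fit and use the same estimate of spread for each gene, so their calls are not independent. Bicuculline raised 51 genes (0.469% of those tested) and lowered 0. With APV all 51 lay below 0, 20 of them fell and 0 rose, and the median was -0.85, beside a median of 1.51 for bicuculline. The 20 shared genes are 20.8% of the genes that fell with APV and 39.2% of the bicuculline genes. The other 76 falls were not called for bicuculline, Nppc, Opn3 and Cav1 among them. Of the 96 falls, 61 (63.5%) lay above 0 for bicuculline, against 37.1% of all tested genes, and of the 60 rises 48 (80%) lay below 0, against 62.9%. Across the 10877 genes, which are not independent replicates, the differences from both comparisons were related with Pearson's r = -0.458 and Spearman's rho = -0.355, as a description. PK-cleaved peptides against DMSO, which shares no library with the APV comparison either, gave r = -0.203 and rho = -0.246. It uses the same DMSO libraries as the bicuculline comparison, so these correlations are not separate from those for bicuculline.

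**Figure D5:**
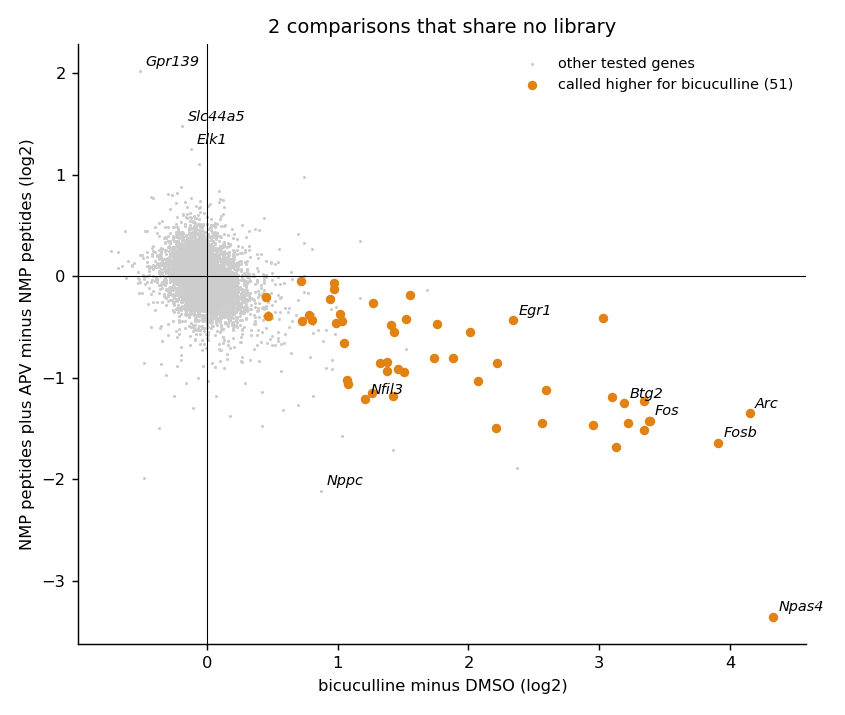
Difference between NMP peptides plus APV and NMP peptides (log2, vertical axis) against bicuculline minus DMSO (log2, horizontal axis), 1 point for each tested gene. The 51 genes called for bicuculline (orange) all lie below 0 on the vertical axis, down to -3.35 for Npas4, while Slc44a5 and Elk1 lie at -0.19 and -0.12 for bicuculline.

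The falls that bicuculline raised and the other falls differed in sequence and size of the gene, as a description. Windows of 250 bases before to 50 after the first listed start of each gene were searched on both strands, and 18 of the 20 shared falls had one. Bdnf is thus counted by a start without the core, not by the start shown above. TGACG was in 14 of those 18 (77.8%), in 19 of 55 (34.5%) of the other falls, in 9 of 39 (23.1%) of the rises and in 2860 of 8422 (34%) of all tested genes. The full CRE was in 2 of 18 (11.1%) of the shared falls, 1 of 55 (1.82%) of the other falls and 0 of 39 of the rises. Over all the falls it was in 3 of 73 (4.11%), near the 306 of 8422 (3.63%) of all tested genes. Each full CRE is also counted as a core. GCGGGGGCG was in 12.3% of all the falls and 6.09% of all tested genes. CCAAT was in 38.4% of all the falls, 43.6% of the rises and 38.9% of all tested genes, and the AP-1 motif TGANTCA in 4.11%, 5.13% and 3.99%. The CArG box, to which serum response factor binds, was in 1.37%, 5.13% and 1.25%. The shared falls had a median gene span of 6.79 kb, the other falls 27.6 kb, the rises 42.4 kb and all tested genes 25.1 kb.

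Cell-type genes were read beside these results. The antilogged signals of the astrocyte markers summed to 991 to 1040 with APV and 866 to 942 with the peptides, while 0 of 22 tested markers were called with limma and 18 lay above 0. Inhibitory neuron markers summed to 672 to 689 with APV and 697 to 791 with the peptides (0 of 14 called, 9 below 0), with Gad1, which makes GABA, at a difference of -0.39 (SE 0.11, limma adjusted p = 0.125). Excitatory neuron markers summed to 329 to 376 with APV and 282 to 342 with the peptides (0 of 14 called), and oligodendrocyte lineage markers to 155 to 190 and 141 to 151 (0 of 10 called). Gfap was at 2.61, 2.76 and 2.77 with APV, against 2.41, 2.87 and 4.15 with the peptides, so NMP peptides replicate 3 was high. Microglia markers summed to 7.86 to 10.8 with APV and 8.59 to 10.5 with the peptides, and endothelial, mural and fibroblast markers to 10.1 to 12.6 and 12.7 to 15.3. The sums did not overlap between the groups for astrocyte, inhibitory neuron, oligodendrocyte lineage, and endothelial, mural and fibroblast markers. Those of excitatory neuron, microglia, and dividing and progenitor cell markers overlapped. The last summed to 101 to 125 with APV and 99 to 110 with the peptides (0 of 15 called). Of the endothelial, mural and fibroblast markers 2 of 17 passed the filter on low values, and of the microglia markers 1 of 15. Among single genes, 21.8% of all those tested did not overlap. Cldn5, which defines endothelial cells, had no value in any of the 6 libraries, and Tmem119, which defines microglia, had one in 1 library of each group. The part of these markers in the changes above was not tested. When the 4 libraries highest in Gfap were left out, NMP peptides replicate 3 among them, 71 genes fell and 20 rose, and the median of the bicuculline genes was -0.93. The 14 reference genes had a median of 0.01 with 0 called.

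Proteasome subunits and the M6 glycoproteins Gpm6a and Gpm6b, which hold the proteasome at the neuronal membrane, had 0 of 38 members called with limma and a median of -0.08, with 32 below 0. Psmc3 and Psmd3 had the smallest p, with differences of -0.17 (SE 0.06) each. Gpm6a (0.05, SE 0.07) and Gpm6b (0.13, SE 0.07) were not called. Synaptic adhesion and scaffold genes had 0 of 31 called and a median of 0.11, and sterol synthesis genes 0 of 23 and a median of 0. Over all genes 1723 had an unadjusted p under 0.05.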

How the data were processed

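Per the labels' protocols, the libraries were sequenced paired-end at 100 bases. The authors deposited quantile-normalised log2 signals for 45802 features in 14 libraries, with missing values for features not measured. Base 2 was checked: antilogged values multiplied by exon length in kilobases summed to 834000 to 903000 per library, against 5930000 to 6530000 for base e. Every library has its median at 2.19 and its maximum at 12.0, so depth is unknown, no whole reads can be derived, and differences in total RNA are lost. Per the submitters' processing notes the genome was GRCm38.p6. Aligner, counter and annotation: not given in the sources used here. Because the missing-value mark is not a number, the values are held as another unit in the record of the files, and the test on log2 values was kept.

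Each label names its column, which set the sample. The 40% of features with the lowest mean signal were dropped, which left 10877 genes without missing values, 21 of them with date-like names that were not named. limma 3.58.1 (R 4.3.3) fitted 1 mean for each group over the 14 libraries, moderating variances by empirical Bayes with a trend, with Benjamini-Hochberg adjustment of the two-sided p over all tested genes. The fit was tested on simulated data. No list was tested as a set: each of the 24 lists is given by its counts and median.

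Members and lists were chosen with earlier results of these data known. Named genes are 7 index genes, the 15 largest falls and rises among called genes with separate libraries, leaving out predicted gene models, and in each list up to 8 called members or the 2 with the smallest p. Junb, Nr4a3, Egr4, Nr4a2, Atf3, Klf10, Homer1, Prdx3, Srxn1, Chac1, Mef2c, Crtc1, Elk3, Elk4, Mkl1, Mkl2, Cyr61, Ctgf, Txnip, Gpm6a, Gpm6b, Gfap, Map2, Grin1, Prnp and the receptor and decay genes of the closing section were named after their values were seen, and the windows of Btg2 and Nppc were added then. Some genes are not reported here. Promoter windows and gene positions are RefSeq's on GRCm38.p6. The alternatives were no filter, dropping 60%, median centring, a pseudocount of 1, a replicate block, only these groups, no trend, array weights, each library left out, a fold minimum of 0.5 and a threshold of 0.01. A fit without the 4 libraries highest in Gfap was added after seeing the data.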

Additional observations from a re-analysis of the deposited data

How the results depend on the processing

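The number of called genes was 156 (96 lower and 60 higher with APV) and stayed within 1.5 times of this without a filter, with centring on the median, a pseudocount of 1, only these groups in the fit, no variance trend and the replicate block (120). A similar count did not always mean the same genes. With only these groups in the fit 171 genes were called, and 121 of these were called in the main fit. For median centring this was 152 of 158. A stricter filter gave 97 and array weights 615, and the count was 93 with a fold minimum of 0.5, 44 at an adjusted p under 0.01 and 91 when the 4 libraries highest in Gfap were dropped, and leaving out 1 library gave 57 to 101. The causes were not tested, apart from the smaller number of libraries or genes by construction. Rises made up 38.5% of the calls, against 27.9% without APV replicate 1 (49 lower, 19 higher), 28.1% without APV replicate 3 (41 and 16) and 22% without the 4 Gfap libraries (71 and 20), and their share was between 28.7% and 46.4% (stricter filter) under the other alternatives. In all 6 fits without 1 library 43 of the 156 genes were called (31 lower, 12 higher), and 23 were called under each of 15 alternatives (15 lower, 8 higher). Of 1102 values of the 75 named genes under alternatives, 957 kept direction and call, 129 lost the call, 16 gained it and 0 changed direction. The bicuculline gene median stayed between -0.93 and -0.71 over the alternatives to the fit, and was -0.94 with its genes chosen at an adjusted p under 0.01. Replicate numbers do not pair these groups (same-numbered correlations of -0.145, -0.21 and 0.133), so the block fit, with 78 lower and 42 higher, is given only as a setting. Centring moved the median of all genes by 0.0108. With 3 libraries a side, changes smaller than the typical SE of 0.103 allows could not be told from 0, and a gene without a value in a library was not tested.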

Other observations

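G protein-coupled receptor genes were a theme noticed among the called genes after their values were seen. Of 97 tested receptor genes, taken by symbol pattern, 9 fell and 3 rose with APV, which is 12.4% called against 1.43% of all tested genes, while the median difference of the 97 was 0 and 48 lay below 0. Opn3 was the largest fall. Avpr1a, a vasopressin receptor, was at -0.05, 0.12 and -0.11 with APV, against 1.26, 1.30 and 0.94 with the peptides (difference -1.18, SE 0.14, limma adjusted p = 0.000919). Adrb1, the beta-1 adrenergic receptor, was at 1.73, 1.93 and 1.72 with APV, against 3.22, 2.86 and 2.49 with the peptides (difference -1.06, SE 0.15, limma adjusted p = 0.00354). Nmbr (-1.05, SE 0.18), Grm2 (-0.85, SE 0.11), Gpr37 (-0.58, SE 0.12), Crhr1 (-0.57, SE 0.12) and Npy1r (-0.54, SE 0.11) also fell. Gpr139, the thyrotropin-releasing hormone receptor gene Trhr (0.61, SE 0.12) and the nociceptin receptor gene Oprl1 (0.36, SE 0.08) rose. The list was drawn up after the calls were known, so its share is a description. Avpr1a, Adrb1, Nmbr, Grm2 and Gpr139 were called with each library left out in turn.

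Among further rises, also named after their values were seen, were Prnp, the prion protein gene, at 7.62, 7.43 and 7.64 with APV, against 6.87, 7.08 and 7.01 with the peptides (difference 0.57, SE 0.07, limma adjusted p = 0.00115), and Upf2 (0.57, SE 0.10), which acts in nonsense-mediated decay with the kinase encoded by Smg1. Outside the fit, 31 features had a value in every NMP peptides library and in no APV library, and 19 the reverse, given with no test.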
